A study of Mus musculus with 2 samples.

Results

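The miR-29 family of the mouse comprises 4 hairpin genes, Mir29a, Mir29b-1, Mir29b-2 and Mir29c, and its reads were followed here in heart tissue. The 4 genes were taken by symbol from the 2202 microRNA genes counted in each library, and all 4 were found. The samples were 2 whole-heart libraries from female B6CASTF1/J mice aged 2 months, which form 1 group with no treatment and no contrasting condition. The labels call them biological replicates of differently numbered females, yet the donor label is shared. P-values between them set the difference of these 2 libraries against counting error only, and that difference may be partly technical. In whole tissue, fewer cells of a type and less RNA per cell cannot be told apart.

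MicroRNAs are short RNAs cut from both arms of a hairpin transcript, and they lower the output of messenger RNAs that pair with the seed, the bases 2 to 8 of the mature product. The miR-29 family is best known for repressing genes of the extracellular matrix, among them collagens, fibrillin and elastin. In the heart it is studied as a brake on fibrosis, and its level is known to fall in the border zone of an infarct.

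Both clusters of the family carry 1 copy of the b type. Mir29a (ENSMUSG00000065610.1; mm10 chr6:31062660-31062747, minus strand) lies 275 bases from Mir29b-1 (ENSMUSG00000065604.2; chr6:31063023-31063093, minus strand). This pair lies outside annotated protein-coding genes in GENCODE M21; 2 bases of Mir29b-1 overlap an exon of the long noncoding RNA Gm27019. Mir29b-2 (ENSMUSG00000065412.3; chr1:195037040-195037120, plus strand) lies 426 bases from Mir29c (ENSMUSG00000065548.1; chr1:195037547-195037634, plus strand). Both of the latter sit inside 1 exon of the noncoding transcript A330023F24Rik, and on the opposite strand inside an untranslated part of the last exon of a transcript of Cd46, a complement regulator gene. None of the 4 genes had an opposite-strand count in either library (0 counts in total), and their own-strand and either-strand counts were equal.

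The 3′ arm products carry the family's common seed and are shown first, because they differ from each other at few bases. Sequences are from RefSeq (GRCm38.p6), in which all 4 genes matched, written 5′ to 3′ with the seed in capitals.
miR-29a-3p: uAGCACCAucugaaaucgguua
miR-29b-3p: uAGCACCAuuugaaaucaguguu
miR-29c-3p: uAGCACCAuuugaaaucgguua

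Counted from the 5′ end, miR-29a-3p and miR-29c-3p differ by the single substitution C10U over 22 bases. The b product differs from miR-29c-3p by A18G, G21U and U22A, and the first 17 bases of these products are identical. No other mature product in the RefSeq table shares the seed of these 3 products. Mir29b-1 and Mir29b-2 encode the same 23-base 3′ arm product, so a read lying wholly inside it matches both loci exactly.

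The 5′ arm products differ from gene to gene and do not carry that seed. They are shown because they are the parts of the b hairpins that tell these 2 loci apart.
miR-29a-5p: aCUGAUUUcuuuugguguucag
miR-29b-1-5p: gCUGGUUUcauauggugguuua
miR-29b-2-5p: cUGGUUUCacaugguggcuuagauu
miR-29c-5p: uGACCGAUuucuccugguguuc

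Each of these 4 products was found in its own hairpin alone among the counted hairpins. The seed of miR-29b-2-5p is shared with miR-6338, whose gene Mir6338 had 0 counts in both libraries, which allows up to 1.24 CPM in replicate 1 and 1.08 CPM in replicate 2 (CPM being counts scaled to 1000000 own-strand counts of microRNA genes, and 3 counts the limit for a count of 0). The other 3 seeds of the 5′ arm occurred in no further product.

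The stretch around the 3′ arm shows how far the shared bases reach. Each line gives 30 bases from 5 before the 3′ arm product; capitals in Mir29b-1 and Mir29b-2 mark the longest stretch these share, capitals in Mir29c the longest stretch it shares with Mir29b-1, and Mir29a has no capitals because it shares no stretch of 18 bases or more.
Mir29a: uuuucuagcaccaucugaaaucgguuauaa
Mir29b-1: uugUCUAGCACCAUUUGAAAUCAGUGUUcu
Mir29b-2: guaUCUAGCACCAUUUGAAAUCAGUGUUuu
Mir29c: UUGUCUAGCACCAUUUGAAAUCgguuauga

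The stretch shared by the b hairpins is 25 bases long and covers the whole 3′ arm product. The stretch Mir29c shares with Mir29b-1 is 22 bases long, but it begins 5 bases before the product and ends 5 bases short of its 3′ end, so that full-length miR-29c-3p occurs in no other counted hairpin. Of the windows of 20 bases in each hairpin, 0 of 69 in Mir29a, 3 of 69 in Mir29c, 9 of 52 in Mir29b-1 and 6 of 62 in Mir29b-2 also occurred in another hairpin. With windows of 18 bases the numbers were 0 of 71, 5 of 71, 11 of 54 and 8 of 64. All shared windows lay over the 3′ arm, and the partner was in each case another gene of the family.

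**Figure D1:**
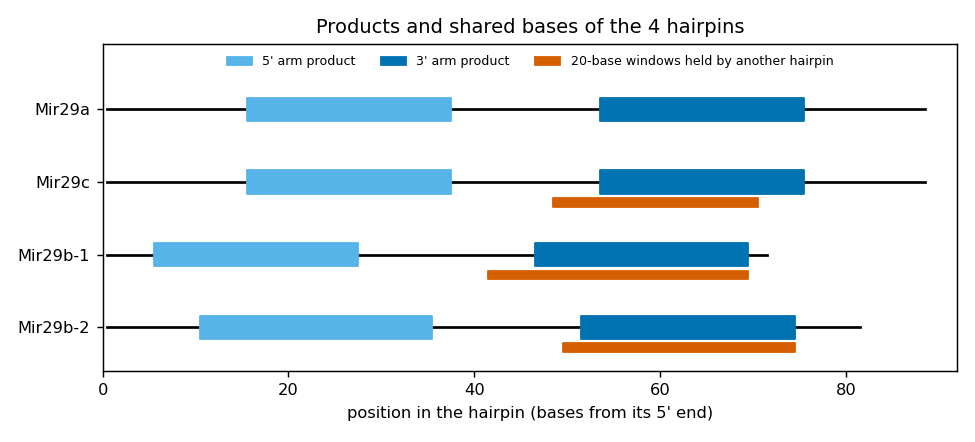
Each line is 1 hairpin, with the position in bases from its 5′ end on the horizontal axis, the annotated 5′ and 3′ arm products as light and dark blue blocks and the span of 20-base windows that occur in another counted hairpin as an orange bar. The orange bars cover positions 42 to 69 of Mir29b-1 and 50 to 74 of Mir29b-2, the whole 3′ arm product in both; in Mir29c the bar ends at position 70, before the product's end at 75, and Mir29a has none.

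Read counts fell into 3 tiers, with Mir29a above Mir29c and both b genes far below these. Mir29a was counted 18405 times in replicate 1 and 21055 times in replicate 2, or 7591 and 7600 CPM, with a mean of 7596 ± 6.23 CPM (SD, n = 2). It ranked 22 among the 2202 genes by mean CPM. Mir29c was counted 2427 and 1984 times, or 1001 and 716 CPM, with a mean of 859 ± 201 CPM (SD, n = 2), and ranked 72. The values of these 2 genes did not overlap.

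The b genes, whose 3′ arm product is the same molecule, were each counted fewer than 100 times per library. Mir29b-1 had 80 and 55 counts, or 33.0 and 19.9 CPM, with a mean of 26.4 ± 9.29 CPM (SD, n = 2). Mir29b-2 had 56 and 39 counts, or 23.1 and 14.1 CPM, with a mean of 18.6 ± 6.38 CPM (SD, n = 2). Mir29b-1 was the higher of the pair within each library, while the ranges of the 2 genes over both libraries overlapped. They ranked 209 and 226, and all 4 family genes were among the 306 genes with at least 10 counts in both libraries.

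The tables hold 1 count per hairpin gene, so reads of the 5′ and 3′ arms cannot be told apart, and reads placed at several positions were counted for no gene. Such reads made up 49.5% of replicate 1 and 42.7% of replicate 2. How many of them were miR-29b-3p is not recorded, and their part in the low b counts was not tested. The counts of Mir29b-1 and Mir29b-2 are therefore uncertain as a level of miR-29b, and the family's order holds for counted reads.

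Together the family held 20968 counts in replicate 1 and 23133 in replicate 2. That was 0.865% of own-strand counts (95% exact Clopper-Pearson interval 0.853 to 0.877) and 0.835% (0.824 to 0.846), with a mean of 0.850% ± 0.0211 (SD, n = 2). Mir29a supplied 87.8% and 91.0% of these counts and Mir29c 11.6% and 8.58%. Both b genes together stayed below the share of Mir29c in each library. The cluster on chromosome 6 held 88.2% and 91.3% of the family's counts and the cluster on chromosome 1 the remaining 11.8% and 8.75%.

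**Figure D2:**
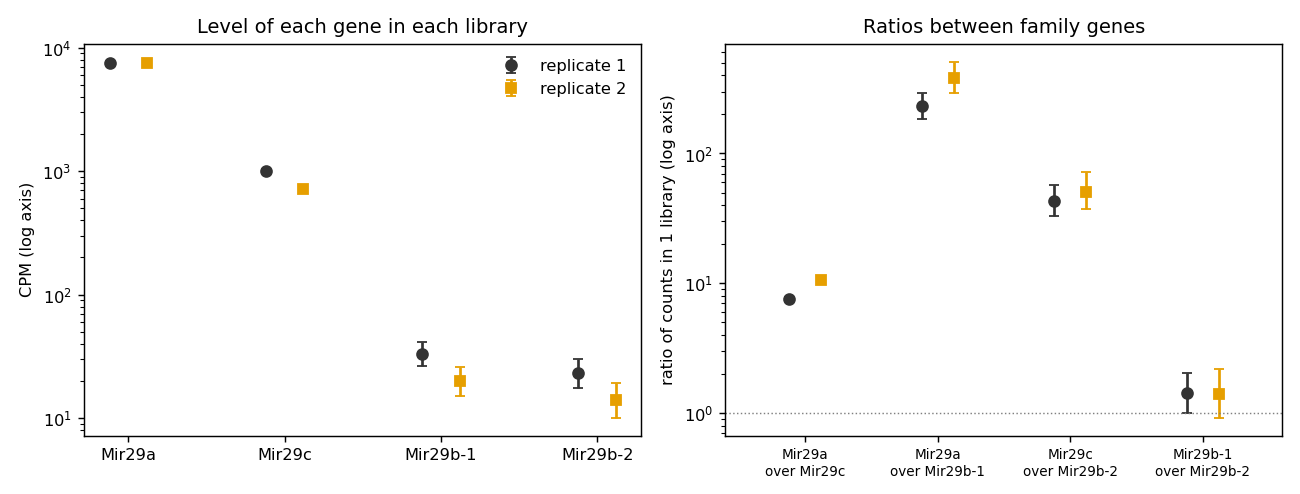
The left panel gives CPM on a log axis for each gene in replicate 1 (dark circles) and replicate 2 (orange squares); the right panel gives the ratio of counts between family genes within each library on a log axis, with a dotted line at 1. Bars are 95% exact binomial intervals, which cover counting error only; Mir29a stands at 7591 and 7600 CPM while the other 3 genes lie lower in replicate 2.

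Ratios between genes of 1 library do not depend on how libraries are scaled. Mir29a exceeded Mir29c 7.58-fold in replicate 1 (exact binomial interval 7.27 to 7.91) and 10.6-fold in replicate 2 (10.1 to 11.1). The ratio was thus 1.40 times as high in replicate 2, and the intervals did not overlap. Within the cluster on chromosome 6, Mir29a exceeded Mir29b-1 230-fold in replicate 1 (185 to 290) and 383-fold in replicate 2 (294 to 508). These intervals were also apart, by a narrow margin.

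Ratios that left out Mir29a were closer between the libraries. Mir29c exceeded Mir29b-2, its partner on chromosome 1, 43.3-fold in replicate 1 (33.3 to 57.5) and 50.9-fold in replicate 2 (37.1 to 71.8). Mir29b-1 over Mir29b-2 was 1.43 in replicate 1 (1.00 to 2.05, just above 1) and 1.41 in replicate 2 (0.919 to 2.18, spanning 1). For both ratios the intervals of the libraries overlapped, which at these counts does not show that the ratios were equal. Counts were not divided by length, since a microRNA read spans 1 product whatever the hairpin's length. Per base of hairpin the geometric mean of the 2 libraries became 239 for Mir29a over Mir29b-1 (297 without) and 43.2 for Mir29c over Mir29b-2 (47.0 without).

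Between the libraries, 3 of the 4 genes were lower in replicate 2 on the scale of library totals and Mir29a was level. Mir29c was 1.40-fold lower (exact binomial interval 1.32 to 1.48; adjusted p = 5.9e-28). Mir29b-1 was 1.66-fold lower (1.16 to 2.39; adjusted p = 0.0083) and Mir29b-2 was 1.64-fold lower (1.07 to 2.54; adjusted p = 0.030). Mir29a did not pass, with a log2 ratio of 0.00 and an adjusted p of 0.95. These p-values come from a two-sided exact binomial test per gene with Benjamini-Hochberg adjustment over 306 genes, and compare 2 libraries and no conditions. The same test called 61.1% of all 306 genes, 41.5% as lower in replicate 2, so calls in this comparison are common. At 1.5-fold or more both b genes were called, beside 36.6% of the 306 genes. Neither was called at that size with the either-strand column, TMM factors or DESeq2 factors, where 88 of 282, 98 of 306 and 97 of 306 genes were.

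The scale matters to these calls. The median of the 306 genes was -0.19 (log2, replicate 2 over replicate 1), against which Mir29a stood higher and the other 3 lower. With DESeq2 size factors, which set that median to 0, Mir29a was higher in replicate 2 by 0.19 (log2; adjusted p = 3.4e-39) and Mir29c lower, with -0.29 (adjusted p = 6.6e-11), in the same binomial test. Mir29b-1 at -0.54 (adjusted p = 0.053) and Mir29b-2 at -0.52 (adjusted p = 0.12) then no longer passed. By library totals the test found 60 of the 306 genes higher and 127 lower in replicate 2, by TMM factors 97 and 84 and by DESeq2 factors 94 and 88.

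**Figure D3:**
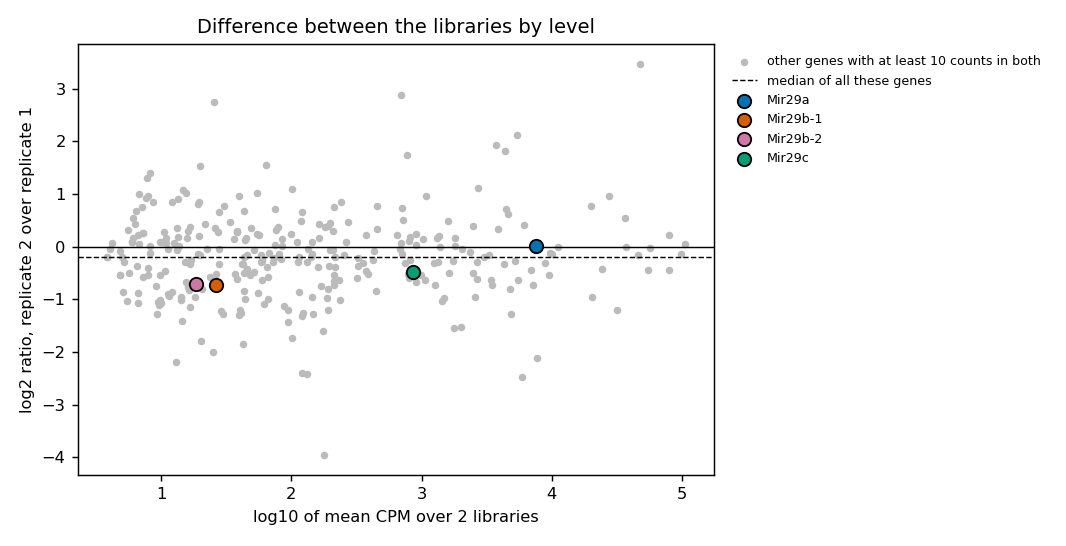
Each point is 1 of the 306 genes with at least 10 counts in both libraries, with the log10 of its mean CPM on the horizontal axis and the log2 ratio of replicate 2 over replicate 1, scaled by library totals, on the vertical axis. Mir29a lies on the line at 0, above the dashed median of -0.19, and the other 3 family genes lie below the median, at -0.48 for Mir29c, -0.73 for Mir29b-1 and -0.71 for Mir29b-2.

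Markers of several cell types also differed between the libraries. The binomial test called 41.5% of the 306 genes lower in replicate 2 and 19.6% higher, so such calls are common. The fibroblast list of 6 genes summed to 1.13% of own-strand counts in replicate 1 and to 0.259% in replicate 2, and to 0.131% and 0.0784% without Mir21a, which supplied most of it. Of its 4 detected genes 3 were lower in replicate 2 under the same test, and Mir199a-1 had 0 counts in replicate 1. The erythroid list of 3 genes, led by Mir451a, held 1.15% and 9.56% (0.367% and 0.878% without Mir451a), and all 3 were higher in replicate 2. The heart muscle list of 7 genes held 0.605% and 0.858%, had no gene at 0 and had 4 genes detected. Of these Mir208a was higher in replicate 2, while Mir499, Mir208b and Mir1a-2 were lower by the same test; without Mir208a the list held 0.451% and 0.271%. Mir1a-1, Mir133a-1 and Mir133a-2 were not detected. Reads placed at several positions were counted for no gene, so undetected genes are not shown to be absent. The list sums likewise hold for counted reads only. The part of the marker differences in the miR-29 values was not tested. With the erythroid genes left out of the library totals, Mir29a was 0.13 higher (log2) and Mir29c remained lower at -0.35.

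Several genes lay close to the family genes in level over both libraries, measured as the distance in log2(CPM + 1) over these 2 points. Nearest to Mir29a were Mir30a (9753 and 7892 CPM; distance 0.37), the let-7 gene Mirlet7f-2 (7912 and 5827 CPM; 0.39) and Mir30d (10100 and 9276 CPM; 0.50). Nearest to Mir29c were Mir214 (1121 and 701 CPM; 0.17), Mir324 (891 and 746 CPM; 0.18) and Mir335 (960 and 635 CPM; 0.18). The genes nearest to Mir29b-1 were Mir194-2, Mir369 and Mir540, at distances of 0.09, 0.15 and 0.21. For Mir29b-2 they were Mir7b, mmu-mir-3535 and Mir375, at 0.19, 0.21 and 0.26. With 2 libraries of 1 group this is likeness of level alone.

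MicroRNAs linked to fibrosis in textbooks made a list of 28 genes that holds the miR-29 family, and 23 of them were detected. Mir26b, of a family also linked to fibrosis, was the most abundant detected gene on it outside the miR-29 family, at 26745 and 13830 CPM. Mir30d (10100 and 9276 CPM) and Mir30a (9753 and 7892 CPM), of a family reported to repress connective tissue growth factor, came next. Mir29a followed them in mean CPM and stood above Mir21a, a microRNA known to promote fibroblast survival, which had 10018 CPM in replicate 1 and 1810 CPM in replicate 2. Mir29a exceeded Mir21a in replicate 2 but not in replicate 1, so their order rests on the library.

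The fibrosis list was written with earlier results of these data known, so its counts are no test of fibrosis genes as a set. It was also not matched in level to the 306 genes. Calls were more frequent at high counts: 74.2% of 213 genes with at least 50 counts in both libraries, against 61.1% of 306. By library totals 19 of the 23 detected genes on the list were lower in replicate 2 and 2 higher, beside 41.5% and 19.6% of the 306 genes. The 2 higher ones, named after their values were seen, were Mir30c-2 and Mir24-1. At 1.5-fold or more 12 were lower and 1 higher, beside 25.5% and 11.1%. The list's median log2 ratio was -0.68 against -0.19 for all 306 genes. Of its 19 detected genes outside the miR-29 family, 16 were lower and 2 higher. With TMM factors 13 of the 23 genes were lower and 5 higher, beside 84 lower and 97 higher of the 306 genes. The median was then -0.46 for the list and 0.03 for the 306 genes. Undetected were Mir133a-1, Mir133a-2, Mir26a-1, Mir199a-1 and Mir199a-2. Both products of Mir199a-1 and Mir199a-2, and 1 of 2 of Mir26a-1, also occur in a hairpin at another locus. Since reads placed at several positions were counted for no gene, lack of detection does not show absence.

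Genes of which 1 product also occurs in a hairpin at another locus, Mir29b-1 and Mir29b-2 among them, were counted at a wide range of levels. Of the 2202 genes, 1018 had a RefSeq mature product found in their hairpin, and 657 of these had 2 products. Among the 657, 61 had 1 product that also occurs in a hairpin at another locus, as Mir29b-1 and Mir29b-2 do, and 34 of the 61 were detected (55.7%). These 34 had a median of 92.2 CPM and ran from 4.05 to 6869 CPM; 20 lay above Mir29b-1 and 8 below Mir29b-2. Of the 576 genes with neither product elsewhere, among them Mir29a and Mir29c, 195 were detected (33.9%), with a median of 98.8 CPM. Of the 20 genes with both products elsewhere 2 were detected. The grouping did not consider which arm was shared, and the medians cover detected genes only. It therefore cannot show what duplication did to the b counts, which was not tested.

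**Figure D4:**
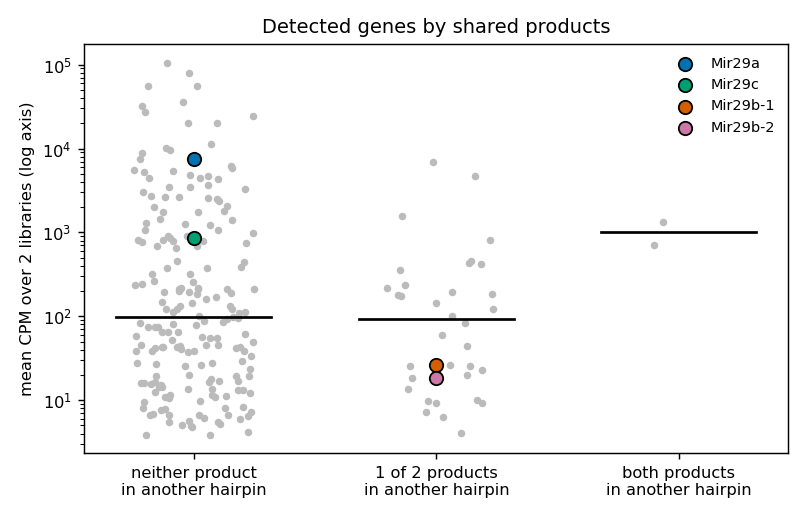
Points are the detected genes with 2 annotated products, grouped on the horizontal axis by how many of these products also occur in a counted hairpin at another locus, with mean CPM over the 2 libraries on a log axis and black bars at the medians of 98.8, 92.2 and 1019 CPM. Mir29a and Mir29c stand above the median of the first group, and Mir29b-1 and Mir29b-2 below the median of the second.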

How the data were processed

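Small RNA of 2 heart libraries had been counted per microRNA gene. The deposited values are raw counts, on mm10 per the labels and with GENCODE M21 per the deposited text. The aligner and counter went unnamed, not given in the sources used here. Without a header, the 3 count columns were read from their values as either-strand, own-strand and opposite-strand. The first sets reads over genes that overlap on opposite strands aside as ambiguous (518508 and 806523 reads), so a gene such as Mir126a can have fewer counts there than on its own strand. Lines that name no gene held 70.0% and 65.3% of reads and were left out. Own-strand counts numbered 2424441 in replicate 1 and 2770301 in replicate 2. They were scaled to CPM. A chi-square statistic of 510 per degree of freedom over genes showed that the tables were not copies.

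The members and lists were chosen with earlier results of these data known. Named are the 4 members, the 3 genes nearest to each in level, the 3 most abundant detected other genes of the fibrosis list and any gene sharing a seed. Genes of the marker lists, Mir21a, Mir30c-2, Mir24-1 and the undetected genes of the fibrosis list fall outside this rule. They were named after their values were seen. Intervals are 95% exact binomial intervals and cover counting error only; reads carry no molecular identifiers here. Detection required 10 or more counts in each library. The binomial test, with a threshold of 0.05, was tested on simulated data that held counting error alone. Those data were scaled by the totals of the genes left unchanged, which are not known for real libraries. This check therefore does not carry over to libraries that differ by more, nor to the choice of scale. With 1 group, edgeR's quasi-likelihood test has no contrast; edgeR 4.0.16 (TMM) and DESeq2 1.42.0 gave scaling factors only, in R 4.3.3. Other steps used scipy 1.17.1, pandas 2.3.3, matplotlib 3.10.9 and numpy 2.4.6 in Python 3.11.15. Alternatives were the either-strand column, other filters, scalings and denominators, thinning, and each library alone. Marker lists for endothelium, smooth muscle and pericytes, leukocytes and skeletal muscle held 7.70%, 5.07%, 0.549% and 0.0272% of counts in replicate 1 and 8.82%, 4.45%, 0.424% and 0.0165% in replicate 2. Of their detected genes 2 of 3, 2 of 2, 3 of 4 and 1 of 2 were called lower in replicate 2. Mir126a was called higher, and without it the endothelium list held 0.335% and 0.289%. Of all 306 genes tested, 41.5% were called lower and 19.6% higher.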

Additional observations from a re-analysis of the deposited data

Results flagged for a closer look

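Reads mapped to several places lie outside the counted data and numbered 3992614 in replicate 1 and 3410568 in replicate 2, where a count of 0 would allow 3. Reads lying wholly inside miR-29b-3p match both b loci exactly; how many are in this class is not recorded, and their part in the counts of Mir29b-1 and Mir29b-2 was not tested.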

How the results depend on the processing

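The family's mean share of 0.850% became 1.14% in the either-strand column, 0.275% with all reads as the denominator and 0.899% without the erythroid genes in it; these follow from the denominators, since the family's own counts were the same. Between single libraries it ran from 0.835% to 0.865%. The 3 ratios between family genes kept their direction in each library alone. The either-strand column could not change them, since the family's counts there were equal. Hairpin lengths of 71 to 88 bases differ too little to reverse ratios of this size. The number of family genes called between the libraries was 3 or 2 in every one of the 8 alternatives, but not the same genes. Of all genes tested, the share called ran from 26.8% (at least 1 count in either library) to 74.2% (at least 50 counts in both). Mir29a was called, as higher in replicate 2, with the either-strand column, TMM factors, DESeq2 factors and totals without erythroid genes (log2 0.13 to 0.22). The either-strand column held the same Mir29a counts and 0 counts of Mir451a. Its call is therefore not separate from that with totals without erythroid genes. Mir29c was called lower in all 8 alternatives. Mir29b-2 kept its call only with the filter of 20 counts over both libraries, and had adjusted p from 0.064 to 0.15 in the 6 others that tested it; the filter of 50 counts in both libraries left it out. Mir29b-1 lost its call with TMM factors (adjusted p = 0.077) and DESeq2 factors (adjusted p = 0.053) and kept it in the other 6; all these are from the binomial test over all genes. At 1.5-fold or more, no family gene was called with the either-strand column, TMM factors or DESeq2 factors. Of all genes tested, 88 of 282, 98 of 306 and 97 of 306 were called there. Both b genes were called at that size with the filter of 20 counts, beside 117 of 319 genes, and 1 family gene in each other alternative. Those called 101 of 306 genes (totals without erythroid genes), 114 of 682 (at least 1 count), 81 of 213 (at least 50 counts) and 110 of 301 (thinning). Depth limits the b genes, whose exact intervals in replicate 1 were 26.2 to 41.1 CPM for Mir29b-1 and 17.4 to 30.0 CPM for Mir29b-2. No paired analysis was possible because the labels give a single group.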
